A study of Mus musculus with 4 samples.

Results

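Untreated MCT cells, a mouse line of kidney epithelial cells that the labels place in the convoluted tubule, were profiled for 84 nephrotoxicity genes and for Actb (beta-actin) by RT-PCR array. The values described here are those of the single untreated sample, and its members are all 84 genes that the Ct table lists beside Actb, of 85 genes in all. The whole series holds 4 samples of the same line, all grown in DMEM with 10% FBS, with 1 sample for each condition. The other 3 were exposed to 10 μg/ml of CsA (ciclosporin, which blocks calcineurin), to 10 μM of SB203580 (which blocks the kinase p38) or to 1 μM of 11R-VIVIT (a peptide that blocks NFAT). The control carried no agent, and a vehicle is not given in the sources used here. MCT is a single established line in culture, which lacks the other cell types of a kidney. The question for the untreated sample is which injury, transport, metabolic and stress genes the line already transcribes before a drug is added.

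The convoluted part of the proximal tubule takes up and secretes solutes and drugs through ion transporters and efflux pumps, makes creatine precursors and glucose, and conjugates xenobiotics. Injured tubule cells are known to lose part of this programme, to express vimentin and fibronectin, and to shed markers such as KIM-1 (Havcr1) and NGAL (Lcn2), which are used to detect nephrotoxicity. Fn14 (Tnfrsf12a), the receptor of the cytokine TWEAK, was the surface marker that the study followed in these cells.

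The threshold cycle (Ct) is the PCR cycle at which the product crosses the detection threshold, so that a lower Ct means more transcript. Genes were classed by raw Ct as abundant (below 25), moderate (25 to below 30), low (30 to below 35) or not detected (35 or later). The level of a gene is given as its Ct minus that of Actb, in cycles, and a level in percent of Actb assumes that each cycle doubles the product in both assays. Levels of different genes come from different primer pairs, whose efficiency and product length are not known here, so a gap of a cycle or less between genes should not be read as an order. Each gene has 1 well in 1 sample, which leaves no replicate error and allows no test. Values set side by side between samples are raw Ct, without that of Actb subtracted. The Ct of Actb was 18.12 (untreated), 17.84 (CsA), 17.81 (SB203580) and 18.13 (11R-VIVIT). Small differences between samples can therefore change in order or direction once Actb is subtracted. Over the 84 genes, the median absolute Ct difference from the untreated sample was 0.30 cycles (11R-VIVIT), 0.68 (SB203580) and 0.86 (CsA). These hold the effect of a treatment and the error of wells together and are no estimate of replicate error. Of the 83 steps between neighbours in the order of untreated Ct, 64 were below 0.30 cycles, the smallest of these differences. The largest step, 1.70 cycles, lay between Cst3 and Odc1.

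Of the 84 genes, 24 (28.6%) were abundant, 17 (20.2%) moderate, 31 (36.9%) low and 12 (14.3%) not detected, so that 72 (85.7%) gave a Ct below 35. Actb had a Ct of 18.12, and the median level over all genes was 11.89 cycles after Actb. The detected genes spanned 15.76 cycles from Hsp90aa1 to Mgp, which equals a 55473-fold range at a doubling per cycle. The 10 earliest genes were Hsp90aa1 (19.21), Tmsb10 (19.57), Cst3 (19.59), Odc1 (21.29), Cxcl1 (21.83), Mt1a (22.0025), Tnfrsf12a (22.15), Fn1 (22.20), Gstp1 (22.41) and Mcm6 (22.81), with the Ct in parentheses. They cover a chaperone, an actin-binding peptide, a protease inhibitor, polyamine synthesis, a neutrophil chemokine, a gene with a metallothionein symbol, Fn14, matrix, glutathione conjugation and DNA replication. The first 3 of them made up 61.0% of the summed level of the 84 genes, and the abundant class as a whole 97.9%. In RNA from a whole culture, a low level in every cell and a higher level in a few cells cannot be told apart.

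**Figure D1:**
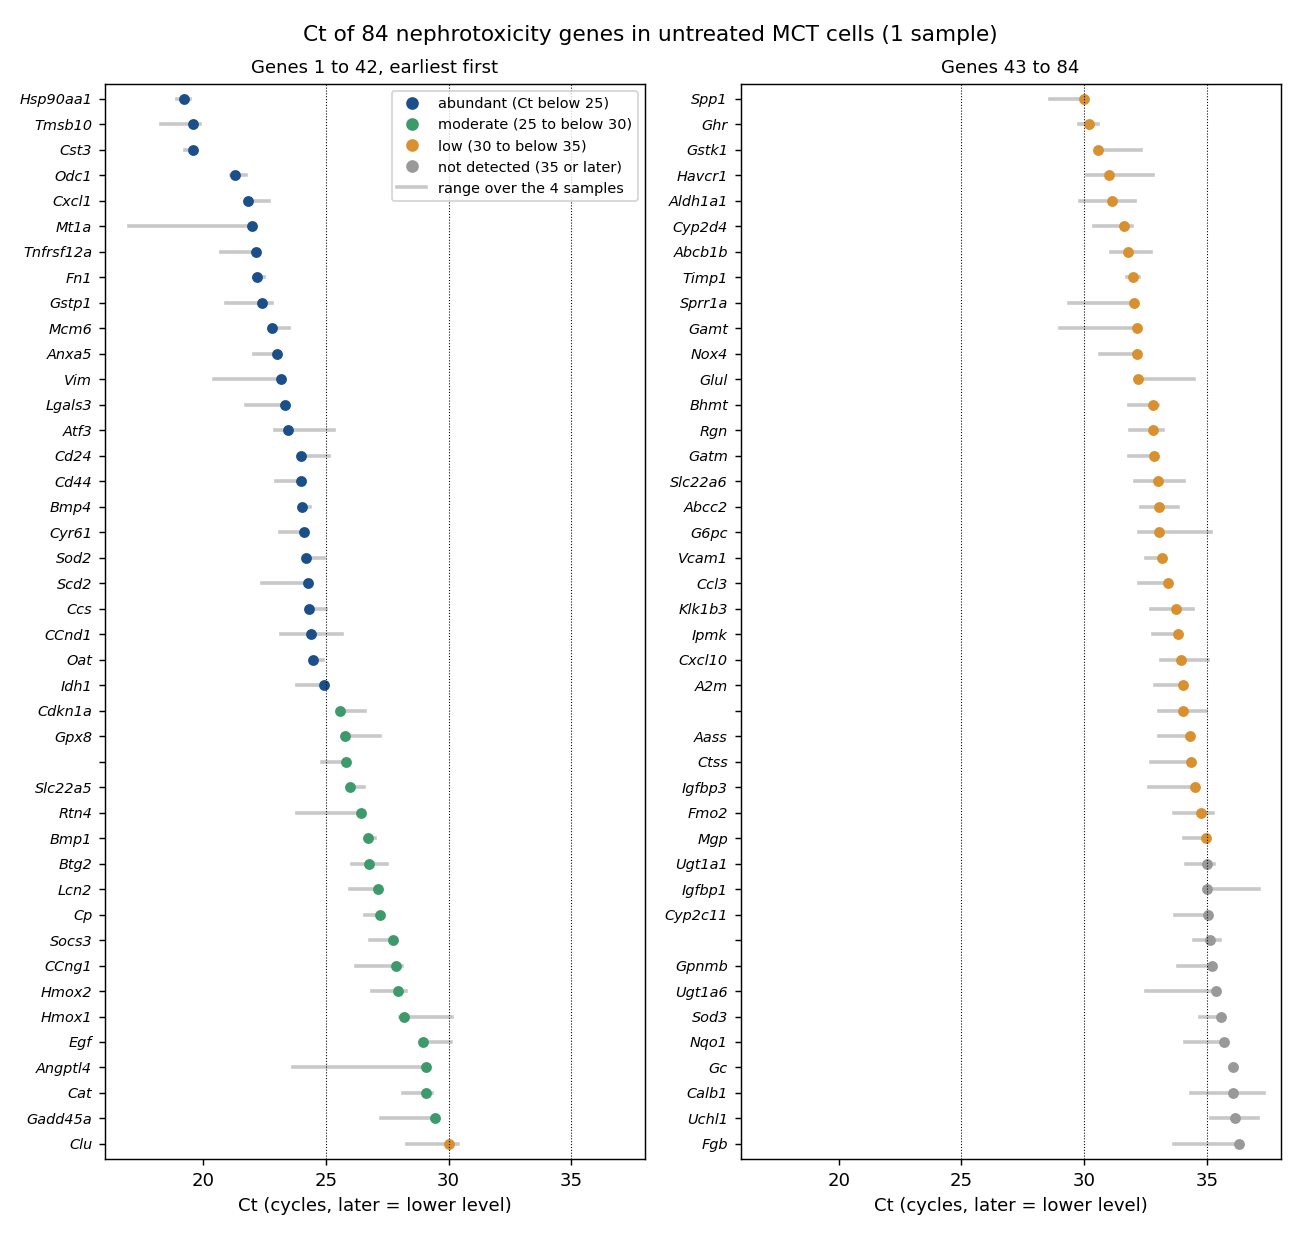
Ct of the 84 genes in the untreated sample (points, in cycles, coloured by class), earliest first, with grey bars for the lowest to highest Ct over the 4 samples of the series. Dotted lines mark the class borders at 25, 30 and 35, and 9 genes crowd within 0.5 cycles of the last border. The 3 genes without a label are counted and not named.

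The borders at 25 and 30 fell into gaps and that at 35 did not. Idh1 (24.9105) was the last abundant gene, and the next, Cdkn1a (25.5601), followed 0.65 cycles later. Gadd45a (29.4404) closed the moderate class, with Clu (30.0024), Spp1 (30.0090) and Ghr (30.2037) just past 30. At 35, Mgp (34.9726) and Ugt1a1 (35.0006) lay 0.028 cycles apart on either side, and Igfbp1 (35.0192) and Cyp2c11 (35.0433) followed directly. Of the 9 genes within 0.5 cycles of this border, 3 were counted as low and 6 as not detected. Not detected therefore means here a Ct of 35 or later and not an absence of transcript.

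The classes were assigned from Ct alone, and the sequence around the gene starts was a feature that they did not use. RefSeq promoter windows (GRCm38.p6, 250 bases before to 50 after the start) matched 63 of the 84 genes with 79 windows. The median number of CG dinucleotides in a window was 20 for 17 abundant genes and 14 for 14 moderate genes. It was 6.5 for 24 low genes and 5 for 8 genes not detected. The median was 12 over the 63 array genes together and 7 over all 32851 windows of the table. At least 15 CG dinucleotides were present in 12 of 17 abundant, 6 of 14 moderate, 6 of 24 low and 0 of 8 not detected genes, or 24 of 63 in all. Across the 63 genes, Spearman's rho between Ct and CG number was -0.53 and Pearson's r -0.50, given as a description since genes are not replicates. The GC-box motif GGGCGG was searched on both strands and itself holds a CG. It occurred in 85% of the windows of abundant genes, 57.1% of moderate, 33.3% of low and 25% of not detected genes. Its share was 51.9% over the 79 windows of the array genes and 35.7% over all windows. TATAAA, searched on both strands, occurred in 10%, 4.76%, 16.7% and 12.5% of the windows in the same order. Its share was 11.4% over the windows of the array genes and 13.6% over all windows. A match is a description of these letters and not a site at which a factor was measured.

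Neighbouring classes overlapped in CG number, which ran from 6 to 42 (abundant), 3 to 34 (moderate), 0 to 37 (low) and 0 to 9 (not detected). The 150 bases directly upstream of the start follow for 5 genes that had a single window, with each CG in capitals. These stretches hold 24 (Slc22a5), 0 (Slc22a6), 11 (Tnfrsf12a), 0 (Gc) and 23 (Igfbp3) CG. The CG numbers in the next sentences are those of the whole 300-base window. The pair of organic cation and anion carriers Slc22a5 (Ct 25.97) and Slc22a6 (Ct 33.03) belong to the same family and lay far apart in the order, with 34 and 2 CG in the whole window. Tnfrsf12a (Ct 22.15, 20 CG) and Gc (Ct 36.05, 0 CG) followed the order of the class medians. Igfbp3 went against it, with 37 CG at a Ct of 34.51.
Slc22a5 (chr11:53891704-53891853, minus strand): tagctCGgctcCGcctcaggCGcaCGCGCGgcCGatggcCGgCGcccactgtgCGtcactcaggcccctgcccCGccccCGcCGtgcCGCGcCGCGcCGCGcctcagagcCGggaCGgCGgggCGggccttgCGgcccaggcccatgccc
Slc22a6 (chr19:8617846-8617995, plus strand): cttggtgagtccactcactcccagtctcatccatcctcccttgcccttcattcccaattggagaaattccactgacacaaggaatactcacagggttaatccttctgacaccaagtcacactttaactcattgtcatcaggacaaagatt
Tnfrsf12a (chr17:23677450-23677599, minus strand): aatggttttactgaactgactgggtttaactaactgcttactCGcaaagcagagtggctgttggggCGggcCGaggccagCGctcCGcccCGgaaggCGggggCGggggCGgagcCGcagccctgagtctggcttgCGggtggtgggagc
Gc (chr5:89457899-89458048, minus strand): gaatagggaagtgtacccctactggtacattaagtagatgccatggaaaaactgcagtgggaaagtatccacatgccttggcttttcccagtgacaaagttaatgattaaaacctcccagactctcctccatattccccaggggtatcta
Igfbp3 (chr11:7213924-7214073, minus strand): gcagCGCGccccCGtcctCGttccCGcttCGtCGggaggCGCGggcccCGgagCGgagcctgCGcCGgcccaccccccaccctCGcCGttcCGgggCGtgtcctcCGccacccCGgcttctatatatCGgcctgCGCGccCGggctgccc

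**Figure D2:**
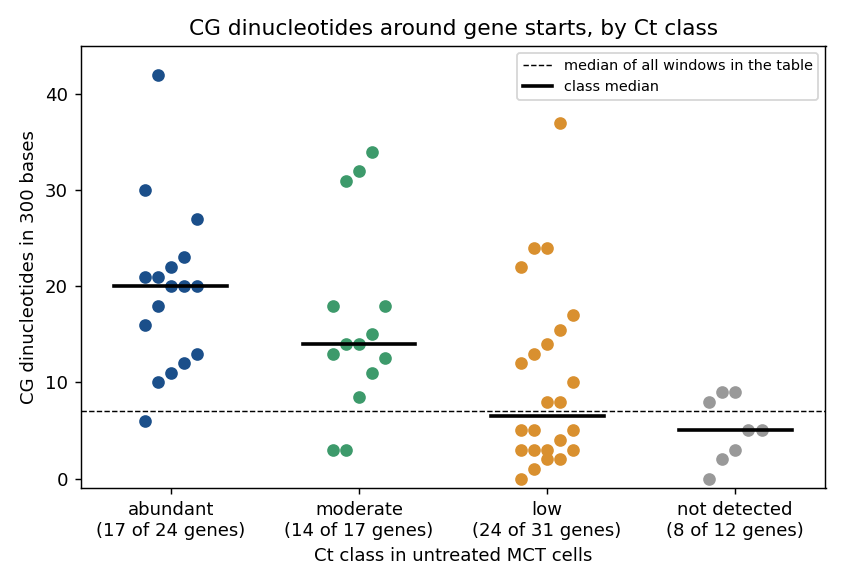
Number of CG dinucleotides in the 300-base RefSeq window around the start of each gene (median over windows where a gene has several), by Ct class in untreated cells. Bars give the class medians of 20, 14, 6.5 and 5, and the dashed line gives the median of 7 over all windows of the table. The array genes shown had a median of 12 together, which is not drawn. The points of neighbouring classes overlap.

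By role, and leaving aside Uchl1, which is alone in its list at 18.05 cycles after Actb, the levels ran from the surface receptors and lectins of injured tubules, with a median of 5.55 cycles after Actb, to the secreted plasma proteins, with a median of 17.93. Lists whose median lay before the 11.89 cycles of all genes were the surface receptors, cytoskeleton and regeneration (6.69), cell cycle, DNA damage and stress (6.86), BMP, matrix and growth factor regulators (8.61), lipid, glucose and NADPH metabolism (9.32) and antioxidant, heme and metal handling (9.81). The median of the injury biomarkers equalled that of all genes because Clu and Spp1 are the middle genes of both. The list itself ran from Cst3 at a Ct of 19.59 to Timp1 at 31.97. Amino acid and creatine metabolism (14.06), drug transporters (14.91), chemokines, adhesion and immune genes (15.31), distal tubule genes (15.64) and xenobiotic enzymes (16.65) lay after it. These lists hold 3 to 11 genes each.

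**Figure D3:**
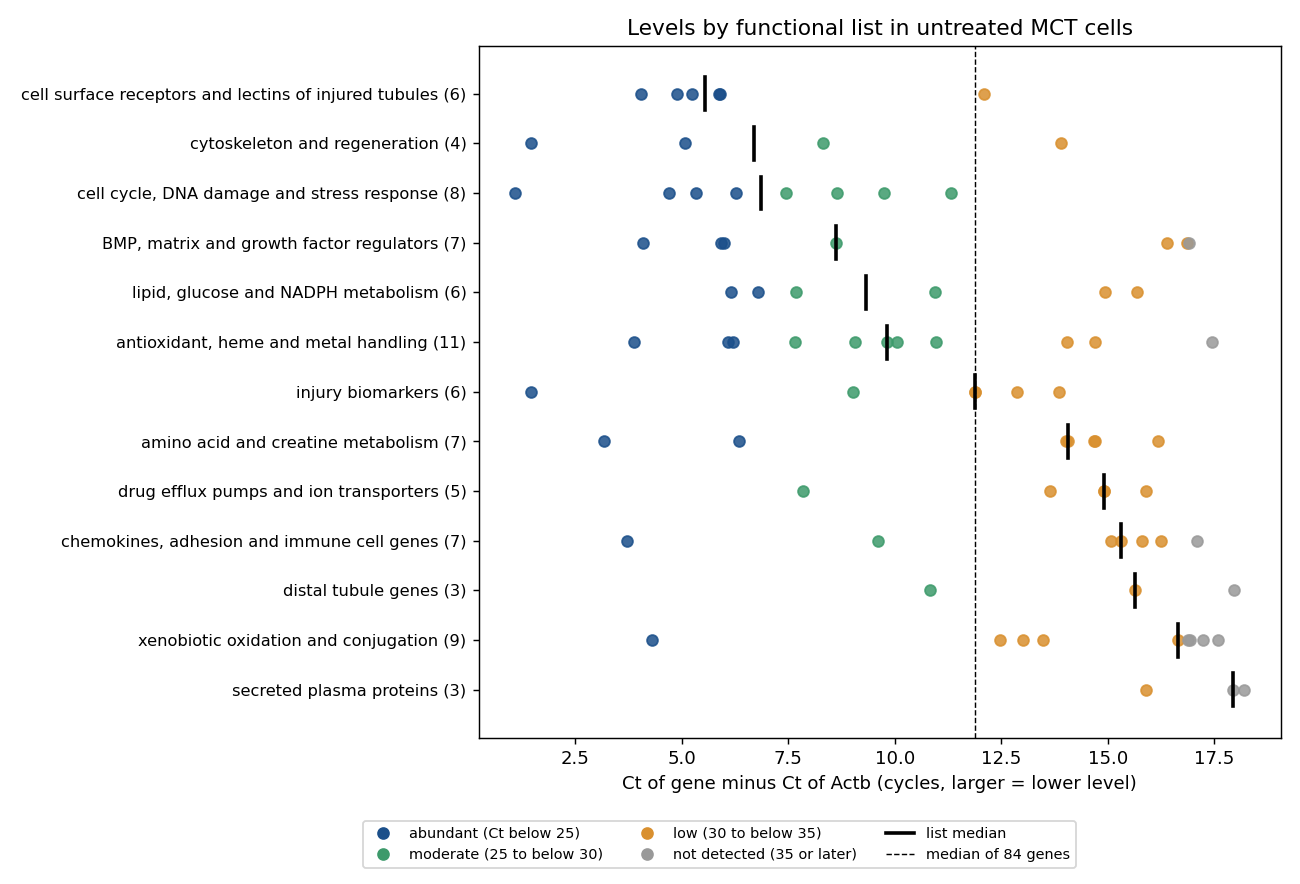
Level of each gene in untreated cells as its Ct minus that of Actb (in cycles, larger is lower), by functional list of more than 1 gene, with the number of genes in parentheses. Points are genes coloured by Ct class, bars are list medians from 5.55 to 17.93, and the dashed line is the median of 11.89 over all 84 genes.

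Of the receptors and lectins, 5 of 6 were abundant, where 28.6% of all genes were. Tnfrsf12a, which encodes Fn14, stood 4.04 cycles after Actb, at 6.09% of the Actb level, and had rank 7 of the 84 genes. Its Ct was 22.15 in the untreated sample against 20.73 (CsA), 21.92 (SB203580) and 22.09 (11R-VIVIT). The CsA sample was the earliest and the other 3 lay within 0.23 cycles of each other. Anxa5, a phosphatidylserine-binding protein used to stain dying cells, had a Ct of 23.01, and Lgals3, the galectin of scarring tissue, one of 23.36. Cd24, a glycoprotein of epithelial progenitors, and Cd44, the hyaluronan receptor of migrating cells, were almost level at 23.98 and 24.01. The Ct of Cd24 was 23.98 in the untreated sample against 24.83 (CsA), 25.12 (SB203580) and 25.03 (11R-VIVIT), and untreated cells had the earliest value of the 4. Ghr, the growth hormone receptor, was the exception of the list at 30.20, in the low class, 6.20 cycles after Cd44.

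Of 6 injury biomarkers, 1 was abundant, 1 moderate and 4 low, where 28.6%, 20.2% and 36.9% of all genes were. Cst3 (cystatin C), the secreted cysteine protease inhibitor whose blood level is used to estimate filtration, had a Ct of 19.59 in the untreated sample against 19.27 (CsA), 19.34 (SB203580) and 19.72 (11R-VIVIT), and the 4 samples lay within 0.45 cycles. It stood at 36.1% of the Actb level in untreated cells. Lcn2 (NGAL), the siderophore-binding protein shed by stressed tubules, was moderate, 7.55 cycles after Cst3, with a Ct of 27.14 in the untreated sample against 25.97 (CsA), 26.66 (SB203580) and 27.17 (11R-VIVIT). Havcr1 (KIM-1), the phagocytic receptor that injured proximal tubules expose, was low and 3.86 cycles after Lcn2. The Ct of Havcr1 was 30.9959 in the untreated sample against 32.82 (CsA), 30.10 (SB203580) and 30.34 (11R-VIVIT). Untreated cells lay between CsA, which was later, and the other samples. Clu (clusterin), an extracellular chaperone, had a Ct of 30.0024 in the untreated sample against 30.39 (CsA), 28.32 (SB203580) and 30.33 (11R-VIVIT). Spp1 (osteopontin), a matrix phosphoprotein that recruits macrophages, had a Ct of 30.01 in the untreated sample against 28.68 (CsA), 28.59 (SB203580) and 29.77 (11R-VIVIT). Both stood within 0.01 cycles past the border of 30 in untreated cells. Timp1, an inhibitor of matrix metalloproteinases, was low at 31.97. Its raw Ct varied by 0.50 cycles over the 4 samples, the least in raw Ct of all genes in the low class.

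Of the genes that mark mesenchymal or dedifferentiated cells, the 3 measured here (Fn1, Vim and Cd44) were all abundant, where 28.6% of all genes were. Fn1 (fibronectin) had a Ct of 22.20 in the untreated sample against 22.06 (CsA), 22.17 (SB203580) and 22.50 (11R-VIVIT), and the samples lay within 0.45 cycles. Vim (vimentin), the intermediate filament of mesenchymal and regenerating tubule cells, had a Ct of 23.19 in the untreated sample against 20.45 (CsA), 22.07 (SB203580) and 23.21 (11R-VIVIT), and untreated cells were level with 11R-VIVIT. Together with Cd44, the 3 markers of this kind that the table holds had a median level of 5.07 cycles after Actb. Tmsb10, a small actin-sequestering peptide of growing cells, had rank 2 of all genes at 36.4% of Actb. Its Ct was 19.57 in the untreated sample against 18.28 (CsA), 19.20 (SB203580) and 19.85 (11R-VIVIT). Rtn4 (Nogo), a protein that shapes the endoplasmic reticulum, was moderate at 26.43. Sprr1a, a cornified envelope protein induced in regenerating tissue, was low at 32.03, 8.84 cycles after Vim.

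The proximal tubule markers of the table were all low, where 36.9% of all genes were. The 5 genes are Gamt and Gatm (the enzymes of creatine synthesis), Slc22a6 (the organic anion transporter OAT1), Abcc2 (the apical efflux pump MRP2) and G6pc (glucose-6-phosphatase). Their Ct lay between 32.14 and 33.06 in untreated cells, with a median level of 14.91 cycles after Actb, and 0 were not detected. In the treated samples they ranged from 29.86 to 35.15 (CsA), from 28.9987 to 32.53 (SB203580) and from 31.93 to 32.98 (11R-VIVIT). These are 5 of 13 candidate markers of this segment, and its defining apical receptors were not analysed here. Slc22a5, a carnitine carrier outside this set, was moderate with a Ct of 25.97. Of 3 distal tubule genes, Egf (epidermal growth factor), made in the thick ascending limb and distal tubule, was moderate with a Ct of 28.95 in the untreated sample against 29.82 (CsA), 30.09 (SB203580) and 29.07 (11R-VIVIT). Klk1b3, a kallikrein, was low at 33.75. Calb1 (calbindin), the calcium-binding protein of the distal convoluted tubule, was not detected, with a Ct of 36.08 in the untreated sample against 37.31 (CsA), 34.36 (SB203580) and 35.61 (11R-VIVIT). A Ct below 35 was reached with SB203580 and not in the other 3 samples. The 4 markers of injured proximal tubule (Lcn2, Spp1, Havcr1 and Vcam1) had 0 abundant, 1 moderate and 3 low genes. Of all genes, 28.6%, 20.2% and 36.9% were in these classes. Their median level was 12.39 cycles after Actb. Beside the label of a convoluted tubule line, the 5 proximal markers were thus at low level and the 3 mesenchymal markers abundant. Sets of this size do not decide an identity, and the label was kept as the submitters give it.

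Among markers of other cell types, those of immune cells and hepatocytes were late. The mesenchymal markers given above were abundant, and none of endothelium or collecting duct was measured. Of the immune markers, Ccl3, a macrophage chemokine, and Ctss (cathepsin S), the lysosomal protease of antigen-presenting cells, were low at 33.43 and 34.36, and Gpnmb, a glycoprotein of macrophages, was not detected at 35.22. The liver plasma proteins had 1 of 3 genes below 35, where 85.7% of all genes were. A2m (alpha-2-macroglobulin) had a Ct of 34.02. Gc (vitamin D-binding protein) had a Ct of 36.05 in the untreated sample against 35.96 (CsA), 36.01 (SB203580) and 35.95 (11R-VIVIT), and the 4 wells, all past the limit, lay within 0.10 cycles of each other. Fgb (fibrinogen beta chain) was the latest gene of all, with a Ct of 36.32 in the untreated sample against 34.65 (CsA), 33.65 (SB203580) and 36.28 (11R-VIVIT). The wells of CsA and SB203580 lay before 35 and those of untreated cells and 11R-VIVIT did not. The table names no well without template, so the Ct that an empty reaction would give is not known here.

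Of 8 cell cycle, damage and stress genes, 4 were abundant and 4 moderate, where 28.6% and 20.2% of all genes were. Thus 8 of 8 were detected, where 85.7% of all genes were. Hsp90aa1, the stress-inducible cytosolic chaperone, was the earliest of all genes at 46.8% of Actb. Its Ct was 19.21 in the untreated sample against 19.36 (CsA), 18.93 (SB203580) and 19.46 (11R-VIVIT), and the samples lay within 0.53 cycles. Mcm6, a subunit of the replicative helicase, and CCnd1 (cyclin D1), which drives entry into S phase, were abundant at 22.81 and 24.40. Both are genes of dividing cells. Atf3, a stress-induced transcription factor that is near silent in resting tissue, was also abundant, with a Ct of 23.45 in the untreated sample against 22.94 (CsA), 23.75 (SB203580) and 25.32 (11R-VIVIT). The 11R-VIVIT well was the latest. The p53 targets Cdkn1a (the cell cycle inhibitor p21), Btg2 (an antiproliferative factor), CCng1 (cyclin G1) and Gadd45a (a DNA damage sensor) were moderate at 25.56, 26.77, 27.88 and 29.44. Gadd45a was 10.23 cycles after Hsp90aa1.

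Among 7 chemokine, adhesion and immune genes, 1 was abundant, where 28.6% of all genes were. Cxcl1, the neutrophil-attracting chemokine that epithelia release on NF-κB activation, had rank 5 of all genes, with a Ct of 21.83 in the untreated sample against 22.70 (CsA), 22.34 (SB203580) and 22.03 (11R-VIVIT). Untreated cells had the earliest value of the 4. Cxcl10, the interferon-induced T cell chemokine, stood 12.10 cycles later at 33.93, and Vcam1, the adhesion molecule for leukocytes, at 33.18. The gap between Cxcl1 and Cxcl10 was 11.17 (CsA), 10.77 (SB203580) and 12.995 cycles (11R-VIVIT), so the order held in each sample. Socs3, the feedback inhibitor of cytokine receptors, was moderate at 27.73.

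Of 5 drug transporters, 1 was moderate and 4 were low, where 20.2% and 36.9% of all genes were. Slc22a5 (OCTN2), which carries carnitine into the cell, was moderate with a Ct of 25.97 in the untreated sample against 26.17 (CsA), 26.57 (SB203580) and 26.21 (11R-VIVIT). Slc22a6 stood 7.06 cycles later, with a Ct of 33.03 in the untreated sample against 34.08 (CsA), 32.06 (SB203580) and 32.77 (11R-VIVIT). The order of Slc22a5 and Slc22a6 was the same in all 4 samples, and the gap between them ranged from 5.49 cycles with SB203580 to 7.91 with CsA. Their upstream sequences are printed above. Abcb1b (P-glycoprotein), which exports CsA among many drugs, had a Ct of 31.77 in the untreated sample against 31.08 (CsA), 31.53 (SB203580) and 32.71 (11R-VIVIT). It was 13.65 cycles after Actb in untreated cells and 1.27 cycles before Abcc2 (33.04), a gap that was 0.028 cycles with 11R-VIVIT.

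The xenobiotic enzymes held 1 abundant gene of 9, where 28.6% of all genes were abundant. They held 4 of the 12 genes not detected, a share of 4 of 9 against 14.3% of all genes. Gstp1, the pi class glutathione transferase of proliferating and epithelial cells, had a Ct of 22.41 in the untreated sample against 20.92 (CsA), 21.79 (SB203580) and 22.81 (11R-VIVIT). Gstk1, the mitochondrial and peroxisomal form, was low at 30.58, 8.17 cycles later. Aldh1a1, which makes retinoic acid, was low at 31.13, and the flavin monooxygenase Fmo2 was low at 34.76. The glucuronosyltransferases Ugt1a1 and Ugt1a6, which share exons of a single locus, were past 35 at 35.0006 and 35.36. The Ct of Ugt1a6 was 32.52 (CsA), 35.27 (SB203580) and 34.76 (11R-VIVIT) in the treated samples, so that it was earliest with CsA. Nqo1, the quinone reductase and textbook target of NRF2, was not detected, with a Ct of 35.71 in the untreated sample against 34.12 (CsA), 35.06 (SB203580) and 35.33 (11R-VIVIT). The CsA well alone was before 35. Cyp2d4 (31.60, low) and Cyp2c11 (35.0433, not detected) carry cytochrome P450 symbols that the mouse annotation does not list, and the transcript their assays measure is not settled.

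Antioxidant, heme and metal genes were spread over all classes, with 10 of 11 detected, where 85.7% of all genes were. Mt1a, a metallothionein symbol, was the earliest at 6.77% of Actb, with a Ct of 22.0025 in the untreated sample against 22.08 (CsA), 20.88 (SB203580) and 16.96 (11R-VIVIT). The untreated and CsA wells were level and the 11R-VIVIT well was 5.04 cycles earlier, before Actb of the same sample. The annotation lists Mt1a as a synonym of Polr2k, an RNA polymerase subunit, and not as a gene of its own. Sod2 (mitochondrial superoxide dismutase) and Ccs (the copper chaperone of cytosolic superoxide dismutase) were abundant at 24.20 and 24.31, whereas Sod3, the extracellular form, was past the limit at 35.57, 11.37 cycles after Sod2. Gpx8 (a peroxidase of the endoplasmic reticulum), Cp (ceruloplasmin) and Cat (catalase) were moderate at 25.78, 27.19 and 29.09. Of the heme oxygenases, constitutive Hmox2 and inducible Hmox1 were level in untreated cells at 27.93 and 28.17. The gap by which Hmox1 followed Hmox2 was 0.25 cycles in untreated cells, 0.12 with 11R-VIVIT, 1.89 with CsA and 2.74 with SB203580. Nox4, the NADPH oxidase of renal tubules, and Rgn (regucalcin), a calcium-binding lactonase, were low at 32.15 and 32.82.

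Of 7 genes of amino acid and creatine metabolism, 2 were abundant and 5 low, where 28.6% and 36.9% of all genes were. Odc1 (ornithine decarboxylase), the first enzyme of polyamine synthesis and a gene of growing cells, had rank 4 of all at 11.1% of Actb, with a Ct of 21.29 in the untreated sample against 21.13 (CsA), 21.72 (SB203580) and 21.75 (11R-VIVIT). Oat (ornithine aminotransferase), a mitochondrial enzyme, had a Ct of 24.46. The remaining 5 were all in the low class. They were Gamt (32.14), Glul (glutamine synthetase, 32.18), Bhmt (betaine-homocysteine methyltransferase, 32.78), Gatm (32.83) and Aass (the first enzyme of lysine breakdown, 34.30). Gatm followed Oat by 8.37 cycles in untreated cells and by 6.95 to 8.09 in the treated samples.

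Of 6 lipid, glucose and NADPH genes, 2 were abundant, 2 moderate and 2 low, where 28.6%, 20.2% and 36.9% of all genes were. Scd2 (a stearoyl-CoA desaturase) and Idh1 (cytosolic isocitrate dehydrogenase) were abundant at 24.28 and 24.91. These enzymes serve lipid synthesis and NADPH supply. G6pc, which releases glucose in gluconeogenesis, was low, 8.78 cycles after Scd2, with a Ct of 33.06 in the untreated sample against 35.15 (CsA), 32.53 (SB203580) and 32.22 (11R-VIVIT). The CsA well was past 35 and the other 3 were not. Angptl4, a secreted inhibitor of lipoprotein lipase, was moderate with an untreated Ct of 29.07, and Ipmk, an inositol phosphate kinase, was low at 33.81.

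Of 7 matrix and growth factor regulators, 3 were abundant, 1 moderate, 2 low and 1 not detected. The shares of all genes were 28.6%, 20.2%, 36.9% and 14.3% in the same order. Bmp4, a ligand of the TGF-beta family, and Cyr61 (CCN1), a matricellular protein, were abundant at 24.04 and 24.10. The raw Ct of Bmp4 ranged over 0.31 cycles in the 4 samples, the narrowest range of raw Ct in the abundant class. This did not hold for levels after Actb. Those of Bmp4 were 5.92 (untreated), 6.51 (CsA), 6.44 (SB203580) and 6.18 (11R-VIVIT). Those of Cst3 lay closer together, at 1.47, 1.42, 1.53 and 1.59 in the same order. Bmp1, the procollagen C-proteinase, was moderate at 26.73. Mgp, the inhibitor of calcification, was low at 34.9726, 12.77 cycles after Fn1. The IGF-binding proteins stood at the limit, with Igfbp3 low at 34.51 and Igfbp1 not detected at 35.0192. The Ct of Igfbp1 was 37.11 (CsA), 35.15 (SB203580) and 35.13 (11R-VIVIT) in the treated samples, past 35 throughout. Uchl1, a ubiquitin hydrolase known from neurons, was not detected either at 36.16.

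The rank of the genes carried over to the treated samples, which the classes did not use. Across the 84 genes, Spearman's rho of the Ct with that of untreated cells was 0.96 (CsA), 0.99 (SB203580) and 0.99 (11R-VIVIT), a description over genes that share their assay and the untreated sample. In all, 57 genes kept the same class in each of the 4 samples. Another class was reached by 18 of 84 genes (21.4%) under CsA, 16 (19.0%) under SB203580 and 10 (11.9%) under 11R-VIVIT, and 0 moved by more than 1 class. Counting a move with a Ct difference of at least 1 cycle leaves 11, 12 and 5. Of the 18 moves with CsA, 15 were to an earlier class, of the 16 with SB203580 13, and of the 10 with 11R-VIVIT 5. These splits depend on the alignment of the samples, since the array median, taken over genes below 35 in all 4 samples, differed from that of untreated cells by -0.77 cycles (CsA), -0.40 (SB203580) and 0.02 (11R-VIVIT). After the Ct of Actb was set level, 9 of 16 moves (CsA), 9 of 15 (SB203580) and 5 of 10 (11R-VIVIT) were to an earlier class, and with the array median set level 6 of 18, 9 of 16 and 5 of 9. With a single sample for each condition, no test of them was possible.

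By untreated class, the share of genes that moved was highest among those not detected in each treated sample. This class can move in only 1 direction, and its Ct of 35.0006 to 36.32 lie close to its border. A high share is thus partly built into the class, and nothing is read from it. Of the 12 genes not detected in untreated cells, 8 came before 35 in the CsA sample, 7 under SB203580 and 4 under 11R-VIVIT. Of all genes, 21.4%, 19.0% and 11.9% changed class in the same order. Gc, Igfbp1 and Uchl1 stayed past 35 in all 4 samples. Of the 24 abundant genes, 20 stayed abundant in each sample, with 0 leaving with CsA, 2 with SB203580 (CCnd1 and Cd24) and 3 with 11R-VIVIT (Atf3, Ccs and Cd24). Of the 31 low genes, 28 were below 35 in all 4 samples, the exceptions being G6pc, Fmo2 and Cxcl10. Genes that left their untreated class in all 3 treated samples were Spp1, Cyp2c11, Gpnmb and Sod3, each to an earlier one, and their untreated Ct of 30.0090, 35.0433, 35.22 and 35.57 lay within 0.57 cycles of a border. By list, the xenobiotic enzymes had 6 of 9 genes in another class with CsA, against 21.4% of all genes, and 4 of those 6 had been past 35 in untreated cells. With a difference of at least 1 cycle, 3 of 9 remained, against 13.1% of all genes. The drug transporters and the matrix regulators had 0 of 5 and 0 of 7 in another class with any treatment, where 27 of all 84 genes (32.1%) were, and nothing is read from lists of this size.

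**Figure D4:**
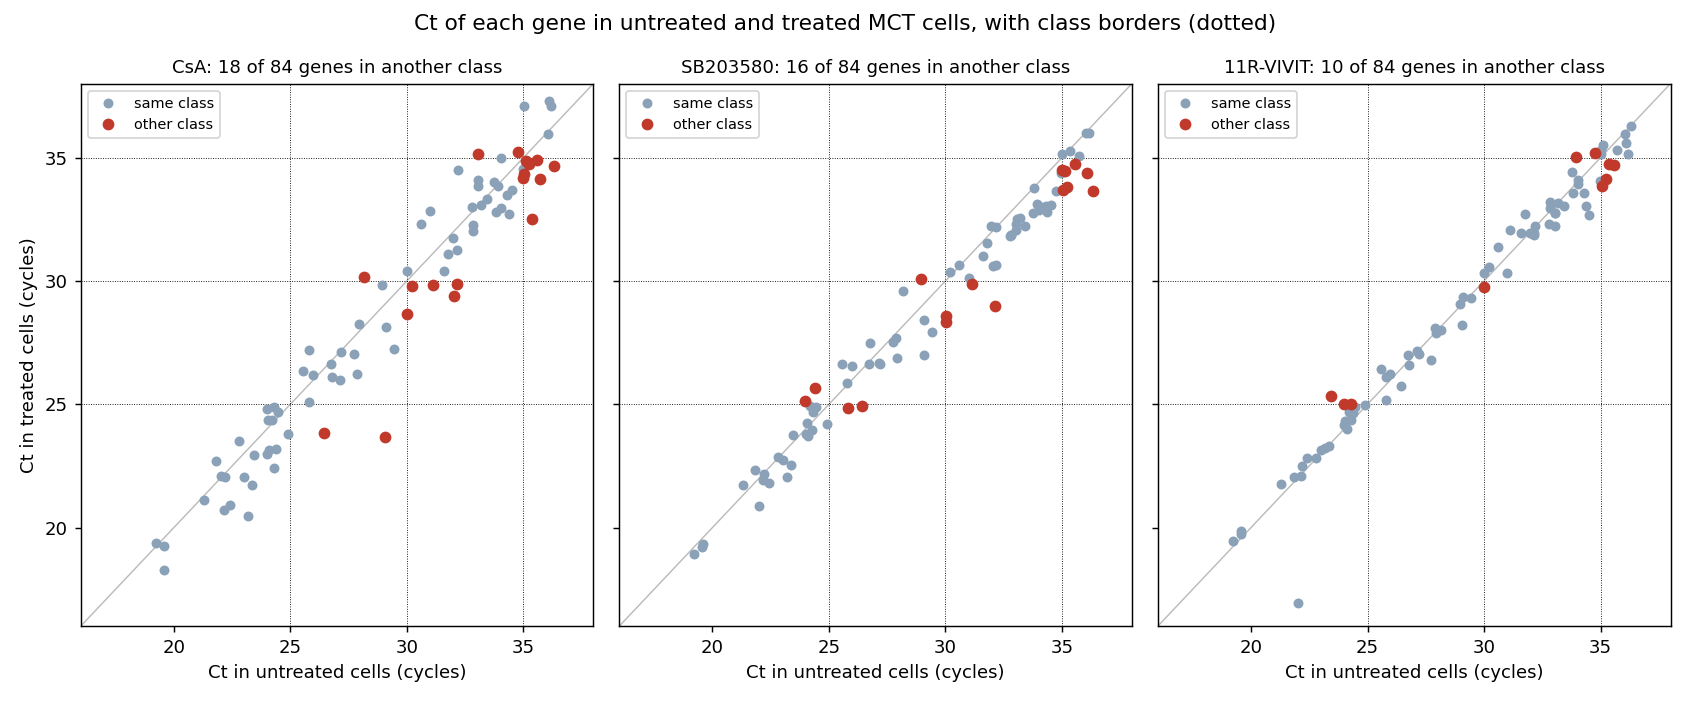
Ct of each of the 84 genes in untreated cells (horizontal, in cycles) and in the CsA, SB203580 or 11R-VIVIT sample (vertical). The diagonal marks equal Ct, dotted lines mark the class borders at 25, 30 and 35, and red points are the 18, 16 and 10 genes that lie in another class than in untreated cells. Many red points lie close to a border.

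The last measure is the spread of the raw Ct of a gene over the 4 samples, without Actb subtracted. The median range from the lowest to the highest Ct was 1.10 cycles for abundant, 1.22 for moderate, 1.59 for low and 1.504 for not detected genes. It was under 1 cycle for 11 of 24, 5 of 17, 5 of 31 and 2 of 12 genes. The widest ranges were those of Angptl4 (5.41 cycles) and Mt1a (5.11), and the narrowest that of Gc (0.10). These ranges hold the effect of the treatments and the error of single wells together, which cannot be told apart here.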

How the data were processed

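Total RNA of MCT cells was extracted with TRIzol and reverse transcribed, and the authors measured it with SYBR green on the RT2 Profiler PCR array PAMM-094Z. The deposited table holds 1 raw Ct, without normalization, for each of 84 genes and Actb in 4 samples, and 0 columns of other samples. Cycler and threshold settings are not given in the sources used here. The deposited table of fold changes holds the authors' own comparisons and was not used. Groups were taken from the treatment labels.

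The level was the Ct of a gene minus that of Actb, the sole housekeeping gene of the table, at an amplification base of 2. Values are given as a description, with no test, since there is 1 sample a condition, and this number limits the precision. The class assignment was run on simulated Ct drawn within the same borders, which checks the code and says nothing of the classes. Genes and lists were chosen with earlier results of these data known, and 6 genes were placed in a list after the symbols of the table were seen. The rule named with values the 10 earliest genes, those at 35 or later, those within 0.5 cycles of a border, the earliest and latest of each list and those that left their class in all 3 treated samples, and the other list members were added, after their values were seen, to account for the members. Of the 84 genes, 3 are counted and not reported here. Of 84 symbols, 77 matched a symbol of GRCm38.p6, 5 a synonym and 2 neither. Primer sequences were not used here, so close relatives, such as those of Gstp1, Abcb1b or Klk1b3, may share a signal. Alternatives were other borders, limits of 32 and 37 cycles, other references and a base of 1.9. Python 3.11.15, numpy 2.4.6, pandas 2.3.3 and matplotlib 3.10.9 were used.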

Additional observations from a re-analysis of the deposited data

How the results depend on the processing

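Of 58 values recomputed under an alternative, 47 stayed within the limits set for them and 11 were counted as moved. The limits were 1.5 times for a count and 0.5 cycles for a median. Among the 11, the fold range with an amplification base of 1.9 had no limit and was counted as moved by construction. Of the 47, 18 could not differ by construction. In 14 the reference cancels in a difference of medians, and in 4 the limit lies past the class. A further 12 could not differ either, being list medians before 35 when Ct of 35 or later was set to 35. These values say nothing of stability. With each border 1 cycle earlier, 15 genes were abundant in place of 24 and 19 not detected in place of 12. With each border 1 cycle later, 4 were not detected. A limit of 32 cycles left 9 low genes in place of 31 and put 34 past the limit, and a limit of 37 cycles left 0. These counts follow from the borders. With Ct of 35 or later set to 35, the medians of the plasma proteins and of Uchl1 moved. Both were 4.99 cycles after that of all genes, in place of 6.04 and 6.16. The other 12 list medians lay before 35 and could not move. The range of detected levels was 24718-fold with an amplification base of 1.9. Genes that left their class by at least 1 cycle numbered 11 with CsA in place of 18 and 5 with 11R-VIVIT in place of 10. Setting the samples level on Actb or on the array median left the number of class changes within 1.5 times. The promoter medians by class used the first listed window as an alternative, chosen after seeing the data, and stayed within 1.5 times. Late Ct values start from few template molecules and are the least precise, so the order of genes close to 35 cycles has little support from single wells.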

Other observations

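In the SB203580 sample, Fgb and Fmo2 had the same Ct of 33.6479 to 4 decimals. No other pair of genes shared a Ct within a sample. The untreated Ct of these genes, 36.32 and 34.76, differed.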
